A study of Mus musculus with 2 samples.

Results

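Immediate-early genes are the genes a cell switches on first after a stimulus, from factors that are already present and without the need for new protein. A list of 10 of them was followed here in B cells of the mouse heart: Fos, Fosb, Jun, Junb, Egr1, Egr3, Nr4a1, Ier2, Dusp1 and Zfp36. They are 10 of the 31053 genes in the count tables. The list was given by name and not by a threshold on measured values, though with earlier results of these data known, and all 10 passed the minimum of 50 UMIs over both libraries (a UMI is the tag that lets each captured transcript be counted once). They were read in the droplets that held at least 2000 gene UMIs, at most 10% mitochondrial UMIs and at least 1 UMI of Cd79a, which encodes a chain of the B cell receptor complex. These were 2077 droplets of a neonatal library and 3611 of an adult library, 5688 in all, and they are called cells below.

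The neonatal library came from C57BL6/J mice of 2 weeks (15 days in the title of the sample), males and females mixed, and the adult library from C57BL6/J males of 8 weeks. All mice were wild type by the labels. The cells of 6 hearts per age were pooled, so 1 library stands for each age and single mice cannot be told apart. Live B cells were sorted by flow cytometry on the same day after the same enzymatic digestion of both groups, and libraries were made with the Chromium 3′ v3 chemistry. Age and library cannot be told apart, and the sexes were compared within the neonatal library. With 1 library per age there is no replicate spread and no test. The 95% intervals given are exact (Poisson for levels, conditional binomial for ratios, binomial for shares) and cover counting error only.

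Fos, Fosb, Jun and Junb encode subunits of AP-1, a transcription factor that binds DNA as a Fos-Jun or a Jun-Jun pair. Egr1 and Egr3 encode zinc finger factors, and Nr4a1 encodes the orphan nuclear receptor Nur77. In B cells the genes of Egr and Nr4a respond to signals of the B cell receptor. They and the AP-1 genes also respond to growth factors, cytokines and stress, including the stress of digesting tissue. Dusp1 encodes a phosphatase that switches off MAP kinases, and Zfp36 encodes tristetraprolin, which binds AU-rich RNA and speeds its decay, so both act as brakes on the response. Ier2 encodes a nuclear protein with a less defined role.

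Many of these promoters carry the core of the cyclic AMP response element, through which CREB acts. RefSeq promoter sequences of GRCm38.p6 were at hand for 7 of the 10 genes, and not for Egr1, Egr3 and Ier2. Windows of 250 bases before and 50 after the start site were searched. The 5 letters TGACG were found, on either strand, in 5 of these 7 windows (Fos, Fosb, Junb, Nr4a1 and Dusp1), against 21.0% of all 27025 promoter windows. The whole element TGACGTCA, which contains the core, was in the Dusp1 window and in 1.88% of all windows. The AP-1 site TGANTCA was in 0 of the 7 and in 7.93% of all, and an Egr site, GCGNGGGCG, in 3 of the 7 (Fosb, Nr4a1 and Zfp36) and in 5.55% of all. The CArG box, through which serum response factor acts, was in the Zfp36 window and in 1.57% of all. TATAAA, searched on the strand of the gene only, was in 2 of the 7 (Fos and Junb) and in 8.88% of all. A match describes the letters and is no evidence of binding. Sites outside these windows were not searched, so a missing match does not mean that a gene lacks the element. The 4 promoters below are shown because they hold the core and stand for the roles the results are ordered by (AP-1, nuclear receptor and brake). Each is the 250 bases before the start site, 5′ to 3′ on the strand of the gene, with the core on either strand and TATAAA in capitals. The Fos window is chr12:85473640-85473889 (plus strand), that of Fosb chr7:19310046-19310295 (minus), that of Nr4a1 chr15:101266596-101266845 (plus) and that of Dusp1 chr17:26508473-26508722 (minus).
Fos: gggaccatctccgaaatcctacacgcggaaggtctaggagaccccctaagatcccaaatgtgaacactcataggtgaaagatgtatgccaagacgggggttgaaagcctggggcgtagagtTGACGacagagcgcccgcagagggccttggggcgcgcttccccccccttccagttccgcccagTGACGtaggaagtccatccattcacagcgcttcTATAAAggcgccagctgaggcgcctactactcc
Fosb: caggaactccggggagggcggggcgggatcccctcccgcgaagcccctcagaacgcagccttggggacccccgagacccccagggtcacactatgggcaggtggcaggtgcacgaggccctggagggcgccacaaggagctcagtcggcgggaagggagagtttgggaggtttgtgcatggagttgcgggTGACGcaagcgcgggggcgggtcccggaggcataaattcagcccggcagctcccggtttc
Nr4a1: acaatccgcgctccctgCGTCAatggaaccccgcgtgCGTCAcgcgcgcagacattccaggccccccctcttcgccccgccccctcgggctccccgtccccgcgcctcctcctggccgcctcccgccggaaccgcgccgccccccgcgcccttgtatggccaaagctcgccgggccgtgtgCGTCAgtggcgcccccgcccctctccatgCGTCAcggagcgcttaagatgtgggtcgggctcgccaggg
Dusp1: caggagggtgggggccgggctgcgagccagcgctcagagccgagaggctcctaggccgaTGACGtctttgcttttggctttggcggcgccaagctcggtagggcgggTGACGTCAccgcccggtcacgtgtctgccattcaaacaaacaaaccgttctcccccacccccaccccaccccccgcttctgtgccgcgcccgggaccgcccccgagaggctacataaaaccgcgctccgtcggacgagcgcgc

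In the Fos window the core began at -129 and at -66 from the start site, and TATAAA at -33. Nr4a1 held 4 cores, at -233, -213, -69 and -40, all on the strand opposite to the gene. In the Dusp1 window the cores began at -191, -143 and -140, the last pair being the 2 strands of the whole element. Fosb held 1 core, at -60.

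Most members are short genes with few exons in the GENCODE annotation of GRCm38, with Nr4a1 (20527 bases, 8 exons) and Dusp1 (56539 bases) as the exceptions in span. The median span of their genes was 4699 bases, against 17433 bases for 21897 protein-coding genes of the tables, and the median number of exons was 2 against 7. The span covers all annotated transcripts, and for Nr4a1 and Dusp1 it starts upstream of the RefSeq start site used above. Jun, Junb and Ier2 had 1 exon. The pentamer AUUUA, the unit of AU-rich elements that mark RNA for rapid decay, occurred at least 3 times in the 3′ UTR of 6 of the 10 members and of 30.3% of those genes. The median 3′ UTR was about as long in both sets (795 and 731 bases), and AUUUA was found 3.56 times per 1000 bases of it in the median member and 1.118 times in the median gene.

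The median neonatal cell had 6000 UMIs and the median adult cell 6131, and the totals over cells were 16403180 and 34623240 UMIs. Every cell had at least 2 UMIs of the 6 B cell markers. The 8 macrophage markers summed to 213 CPM (UMIs per 1000000 of the total over cells) in neonatal and 88.5 CPM in adult cells, and the 6 T cell markers to 17.1 and 23.6 CPM. The 3 neutrophil markers had 410 UMIs in neonatal cells and were all at 0 in adult cells, and of 6 endothelial markers (140 and 118 CPM) Kdr was at 0 in the adult cells. At least 3 macrophage markers were present in 16 neonatal and 22 adult cells, and at least 3 T cell markers in 2 and 8. Barcodes with at least 500 UMIs in both libraries numbered 110, of which 61 were neonatal and 45 adult cells, and 2 were called as cells in both. Near-empty droplets (ranks 45000 to 90000 by UMIs) held 55.9 (neonatal) and 92.0 UMIs (adult) on average, and the members made up 4611 and 4300 CPM of that free RNA, close to their level in the cells.

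Of the AP-1 genes, Fosb was the member that differed most between the libraries. Its level was 300.1 CPM in neonatal cells (95% interval 292 to 309) and 151 CPM in adult cells (147 to 155), so the adult level was 0.504 of the neonatal one, a log2 ratio of -0.99 (-1.05 to -0.93). Jun had 177 CPM in neonatal and 124 CPM in adult cells, a log2 ratio of -0.51 (-0.58 to -0.45). The intervals of the libraries did not overlap for any of the AP-1 genes. They cover counting error only, so this does not set Fosb and Jun apart. Fos had 530 CPM against 452 CPM (log2 ratio -0.23, -0.27 to -0.19) and Junb 1877 CPM against 1777 CPM (-0.08, -0.10 to -0.06). For Fos and Junb the difference was small, and it changed sign when each cell was thinned to 2000 UMIs (log2 0.05 for Fos and 0.03 for Junb).

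Of the Egr and Nr4a genes, both Egr genes had lower adult levels and Nr4a1 was nearly level. Egr3 had 106 CPM in neonatal cells (101 to 111) and 60.6 CPM in adult cells (58.0 to 63.2), a log2 ratio of -0.81 (-0.90 to -0.72). Egr1 had 136 CPM (130.5 to 142) and 86.3 CPM (83.2 to 89.4), a log2 ratio of -0.66 (-0.74 to -0.58). Without cells that had at least 3 macrophage or T cell markers the Egr1 ratio was -0.57. Without the 5% of cells with most UMIs it was -0.42, and both values are under 1.5-fold. Nr4a1 had 504 CPM and 455 CPM, a log2 ratio of -0.15 (-0.19 to -0.11), which was 0.00 when the libraries were scaled by the median ratio over genes.

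The brakes went in opposite directions. Zfp36 had 348 CPM in neonatal and 201 CPM in adult cells (log2 ratio -0.79, -0.84 to -0.74), while Dusp1 was the 1 member with a higher adult level, 177 CPM against 144 CPM (0.30, 0.23 to 0.36). The Dusp1 ratio turned to -1.13 in the 60 neonatal and 156 adult cells with at most 5% mitochondrial UMIs. Ier2 had 389 CPM and 353 CPM, a log2 ratio of -0.14 (-0.19 to -0.10), and its sign turned with thinning (0.08).

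Together the members had 4511 CPM in neonatal cells and 3836 CPM in adult cells, a log2 ratio of -0.23 (-0.25 to -0.22). Their median log2 ratio was -0.37, against -0.13 over 10703 genes with at least 50 UMIs. The adult level was the lower one for 9 of the 10 members. Most of all those genes were lower too: 62.5% had a log2 ratio below that of Cd79a, -0.02. Past 1.5-fold, 4 were lower in the adult library (Fosb, Egr3, Zfp36 and Egr1) and 0 higher, and among all those genes 12.2% were lower and 7.82% higher by that much. Scaling by the median ratio moved every log2 ratio up by 0.15, and Junb, Nr4a1 and Ier2 then lay above 0. Fosb, Jun, Egr1, Egr3 and Zfp36 kept the lower adult level under each of 14 alternatives tried on the cells, the counts and the scaling, and Fosb and Zfp36 stayed past 1.5-fold in all 14, Egr3 in 13 and Egr1 in 10. The log2 ratio of the sum was -0.09 after thinning, -0.10 without cells that had at least 2 UMIs of other cell types' markers, and -1.001 with at most 5% mitochondrial UMIs. The rule on other cell types' markers took out a large part of each library, keeping 1154 of 2077 neonatal and 2133 of 3611 adult cells. At least 2 UMIs of the endothelial markers alone were present in 28.1% of neonatal and 25.5% of adult cells. AP-1 genes made up 63.9% of the members' UMIs in neonatal and 65.3% in adult cells, and Egr1, Egr3 and Nr4a1 together 16.5% and 15.7%.

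**Figure D1:**
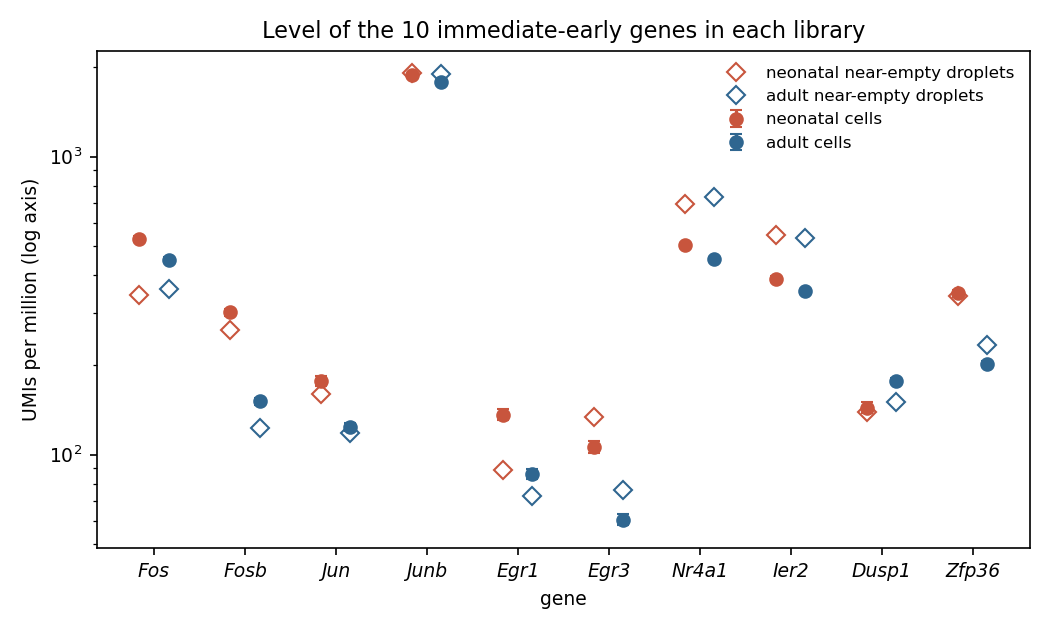
Level of each gene in CPM (log axis), with filled circles for the cells of each library, bars for exact 95% Poisson intervals (mostly smaller than the circles) and open diamonds for near-empty droplets of the same library. Fosb, Egr3, Zfp36 and Egr1 were over 1.5 times higher in neonatal cells, and the near-empty droplets of the neonatal library also had the higher level of these 4 genes.

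The other genes of the early response, taken from lists, were more often lower than higher in the adult library. Of 53 genes of 7 lists with at least 50 UMIs, 16 were at least 1.5-fold lower and 2 higher, beside 12.2% lower and 7.82% higher among all genes tested, the shares that hold for each list below. The relatives of the AP-1 subunits stood out by count: 5 of 5 measured were lower past 1.5-fold. Atf3 had 218 CPM in neonatal and 102 CPM in adult cells (log2 ratio -1.09), Batf 32.8 and 15.6 CPM (-1.08), Maff 10.7 and 5.14 CPM (-1.05), and Fosl2 43.6 and 25.2 CPM (-0.79). Jund, the Jun family member that is expressed without a stimulus, was the other of the 5, with 2976 and 1892 CPM. Egr2, Nr4a2 and Nr4a3 were all within 1.5-fold. The phosphatases related to Dusp1 went both ways. Dusp10 (72.9 and 28.0 CPM), Dusp5 (174 and 69.7 CPM) and Dusp2 (436 and 242 CPM) were lower in adult cells, whereas Dusp4 was higher, with 5.73 CPM in neonatal and 28.8 CPM in adult cells.

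Among 15 further early genes, Klf4 (249.8 and 114 CPM, log2 ratio -1.13), Socs3 (85.2 and 51.1 CPM), Btg1 (2467 and 1508 CPM) and Ppp1r15a (117 and 209.5 CPM) were the 4 furthest apart. Past 1.5-fold, 4 of the 15 were lower in the adult library and 1 higher, Ppp1r15a, which encodes a regulatory subunit of a stress-response phosphatase. In the list of genes of early B cell activation 3 of 6 were lower, led by Irf4, which had 192 CPM in neonatal and 68.0 CPM in adult cells (log2 ratio -1.50), with Ccl3 (3.11 and 1.21 CPM) and Ccl4 (26.9 and 15.4 CPM). Nfkbia, the inhibitor of NF-kB, was the 1 gene of 6 in its list past 1.5-fold (353 and 221 CPM). Of 13 upstream kinases and factors, among them Srf, Elk1 and Creb1, 0 were past 1.5-fold in either direction. Of 10 heat shock genes 6 were lower in the adult library and 0 higher, with Hspa1b (9.39 and 1.88 CPM), Hspa1a (8.66 and 1.79 CPM), Hsph1 (49.0 and 20.7 CPM) and Dnaja1 (389 and 185 CPM) furthest apart. Hspa1a and Hspa1b are near-identical copies, so how reads were split between them is uncertain.

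The share of cells with a UMI was compared after each cell had been thinned to 2000 UMIs. Fosb was present in 35.1% of neonatal cells (33.1 to 37.2%) and 18.7% of adult cells (17.5 to 20.0%), Zfp36 in 40.9% and 28.9%, and Egr3 in 14.2% and 8.11%. Nr4a1 was present in 46.2% and 49.5%, Ier2 in 44.6% and 47.8%, Fos in 40.1% and 44.1%, Junb in 85.2% and 86.2%, and Dusp1 in 16.9% and 25.03%. For Fos, Junb, Nr4a1 and Ier2 the share was thus higher in adult cells while the CPM was lower. No order is read from them. As sequenced, Fos was present in 63.9% of neonatal and 68.7% of adult cells. From the free UMIs of a near-empty droplet alone, 10.1% of neonatal and 16.04% of adult cells would have shown Junb, and 0.494 to 3.79% and 0.664 to 6.54% one of the other members. Gene by gene the measured share was the higher one, with Egr1 at 0.494% against 7.85% in the neonatal and 0.664% against 5.82% in the adult library.

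Egr1 stood apart by how unevenly its UMIs lay. It was present in 7.85% of thinned neonatal cells (6.73 to 9.09%) and 5.82% of adult cells (5.07 to 6.63%). As sequenced, 305 of 2077 neonatal cells had an Egr1 UMI, and 27 cells held 50% of all 2232. Of the adult cells, 51 of 3611 held 50% of 2987 UMIs. The variance of its thinned counts was 5.25 times the mean in neonatal and 3.96 times in adult cells. For Ier2, whose UMIs were spread over most cells, these ratios were 1.62 and 1.47, and 293 neonatal cells held 50% of its UMIs. Jun and Fos lay between, with 3.61 and 2.88 for Fos and 2.41 and 2.13 for Jun.

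The members were found together in cells more often than their shares alone would give. After thinning, at least 5 of the 10 were present in 27.1% of neonatal cells (25.2 to 29.1%) and 23.0% of adult cells (21.6 to 24.4%), where independent presence at the measured shares would give 22.6% and 17.5%. Cells with none of the 10 were also more frequent, 2.94% among neonatal cells and 2.82% among adult cells against 0.532% and 0.633%. The excess grew towards the top. At least 8 members were present in 64 neonatal cells (3.08%, 2.38 to 3.92%) and 55 adult cells (1.52%, 1.15 to 1.98%), where independence would give 0.191% and 0.0839%. All 10 were present in 1 neonatal cell. The 10% of cells with most member UMIs held 29.4% of the member UMIs among neonatal cells and 27.0% among adult cells. Macrophage or T cell markers (at least 3) were present in 7 of the 64 and 2 of the 55 cells, and the cells with at least 8 members had a median of 7821 and 8265 UMIs before thinning against 5954 and 6107 in the rest. The part of those cells and of depth in the excess was not tested.

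**Figure D2:**
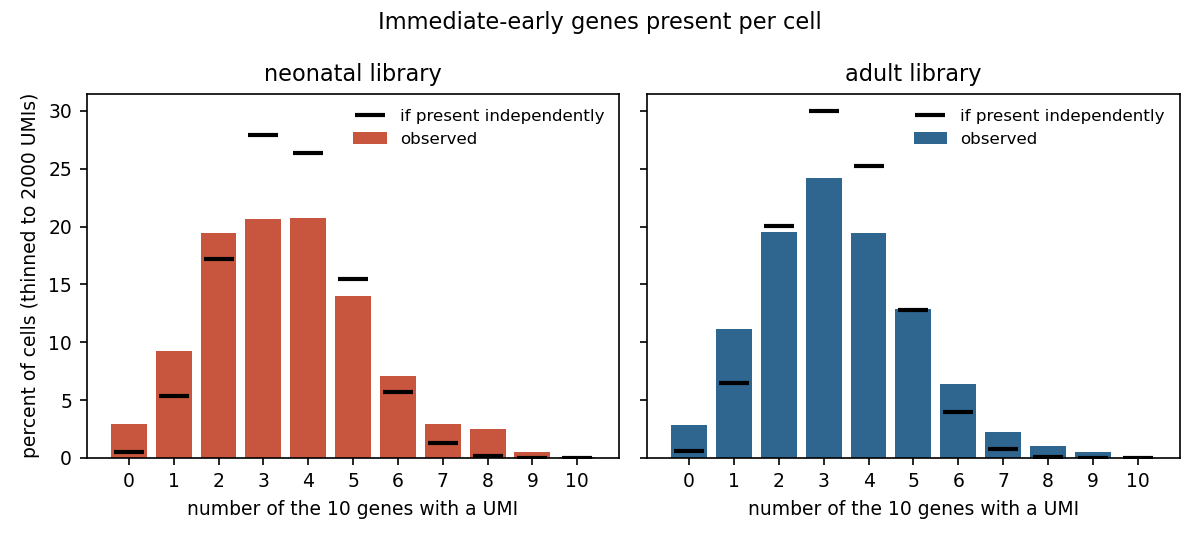
Percent of cells (each thinned to 2000 UMIs) by the number of the 10 genes with a UMI, with bars for the observed share and black lines for the share expected if the genes were present independently at their measured shares. In both libraries the bars lay above the lines at 0 and 1 and from 6 to 9 genes, and below them at 3 and 4, and 0 adult cells had all 10.

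Over cells, each of the 45 pairs of members had a positive correlation of log2(UMIs + 1) in both libraries. The correlations were weak, as counts this sparse allow, with a median of 0.16 in the neonatal (0.04 to 0.30) and 0.13 in the adult library (0.03 to 0.26). They are given as a description, since the points are cells of 1 library. Pairs of all genes present in at least 5% of cells had a median of 0.000441 among neonatal cells and 0.000702 among adult cells and a 99th percentile of 0.058 (4432 neonatal genes) and 0.046 (4110 adult genes), and 41 neonatal and 44 adult member pairs lay above it. The pairs of all genes were not matched to the members for level, so the count above the percentile is a description only. Fosb with Egr1 (0.25 among neonatal cells and 0.22 among adult cells), Egr1 with Egr3 (0.21 and 0.26) and Fos with Fosb (0.28 and 0.21) ranked first by the lower of both values. Fos with Junb had 0.30 and 0.19. Egr1 and Egr3 were present together in 3.46 times as many adult cells and 1.86 times as many neonatal cells as independence would give. At the other end, Jun with Egr3 had 0.04 and 0.03, and Nr4a1 with Zfp36 had 0.04 among neonatal cells and 0.13 among adult cells.

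**Figure D3:**
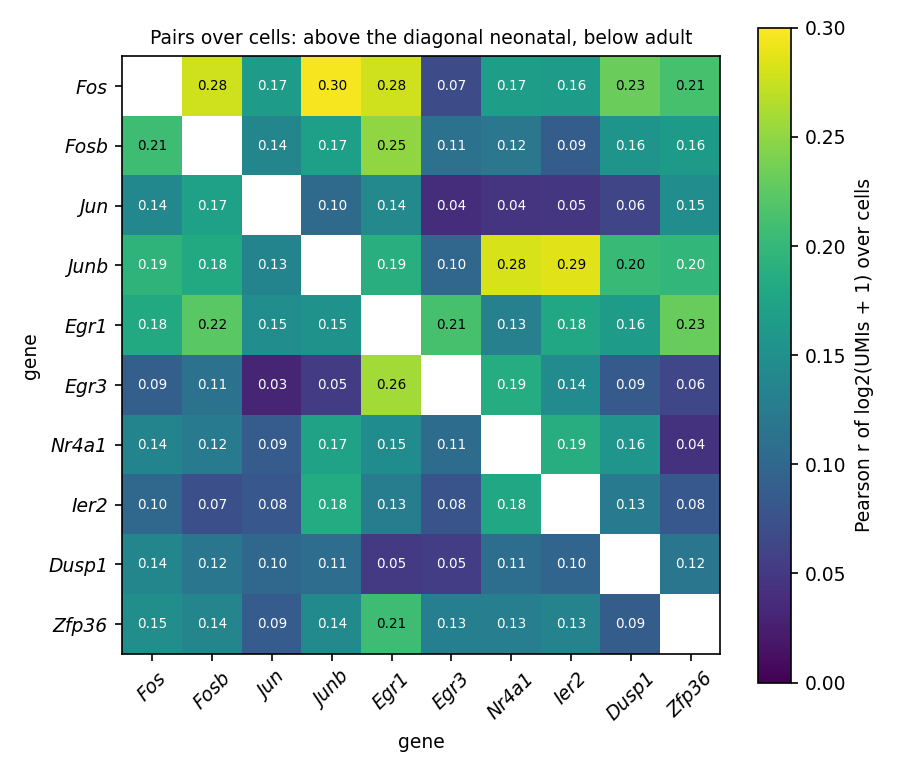
Pearson correlation of log2(UMIs + 1) over cells thinned to 2000 UMIs for each pair of genes, with the neonatal library above the diagonal and the adult library below it. All values were above 0, from 0.03 to 0.30, and Egr1 gave 0.21 and 0.26 with Egr3 and 0.25 and 0.22 with Fosb.

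AP-1 genes were present in most cells, with or without the Egr and Nr4a genes. Each family was led by 1 gene. Junb held 30785 of the 47297 neonatal and 61530 of the 86697 adult AP-1 UMIs. Nr4a1 held 8262 of the 12235 neonatal and 15737 of the 20821 adult UMIs of the Egr and Nr4a genes. The shares and sums by family below thus rest mostly on these genes. The summed AP-1 UMIs and the summed UMIs of Egr1, Egr3 and Nr4a1 correlated over cells with r = 0.35 among neonatal cells and 0.26 among adult cells. Both families were present in 51.9% of neonatal and 51.6% of adult thinned cells, AP-1 alone in 40.5% and 40.8%, the Egr and Nr4a genes alone in 2.17% and 2.52%, and neither in 5.39% and 5.10%. The median correlation of pairs was 0.17 and 0.18 within AP-1, 0.19 and 0.15 within the Egr and Nr4a genes, and 0.13 in both libraries between the families.

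The 10 genes most like the members over cells, ranked among 3919 by the lower correlation of both libraries with the summed members, were Klf4, Ppp1r15a, Nfkbid, Kdm6b, Jund, Dusp2, Ier5, Gm26532, Clk1 and Ddx5. Klf4 had 0.21 in both libraries, Ppp1r15a 0.25 among neonatal cells and 0.21 among adult cells, and Nfkbid 0.20 and 0.19. Jund differed most between the libraries among these, with 0.16 and 0.39. Of 39 list genes that could be ranked, 19 were among the first 50. The B cell activation genes Cd83, Cd69 and Rel ranked 11, 12 and 19. These 3 list genes were picked after their ranks were seen. Irf4, of the same list, ranked 337, with 0.02 among neonatal cells and 0.07 among adult cells. At the negative end, Ms4a1, which encodes CD20, had -0.21 and -0.09, and Ly6d -0.25 and -0.09. Both were named after their values were seen.

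Cell states were marked by 3 genes. Bhlhe41 is known from B1 cells, Vpreb3 from immature and transitional cells and Fcer2a, which encodes CD23, from follicular cells. A cell was counted under a gene if it had a UMI of that gene and none of the other two. This gave 77 Bhlhe41, 688 Vpreb3 and 252 Fcer2a cells in the neonatal library and 139, 373 and 881 in the adult library. A UMI of none of the 3 was found in 231 and 436 cells, and UMIs of several in 829 and 1782. The other 7 markers of the B1 list summed to 6130 CPM in neonatal Bhlhe41 cells against 1373 CPM in Fcer2a cells, and to 4116 against 1476 CPM in the adult library. In cells with none of the 3 genes these markers summed to 4071 CPM (neonatal) and 2859 CPM (adult), also above Fcer2a cells. The other 5 transitional markers summed to 4444 CPM in neonatal Vpreb3 cells and 1973 CPM in Fcer2a cells, but only to 2972 and 2364 CPM in the adult library, so the adult Vpreb3 cells were less clearly marked. Bhlhe41 cells were the deepest, with a median of 13692 and 13762 UMIs against 4349 to 5828 in the Vpreb3 and Fcer2a cells.

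In the neonatal library the members' sum was lowest in Vpreb3 cells, at 3448 CPM (3392 to 3505). It was 5298 CPM (5187 to 5410) in Fcer2a cells, 5464 CPM (5361 to 5568) in cells with none of the genes and 5795 CPM (5656 to 5936) in Bhlhe41 cells, and the cells with several of the genes had 4482 CPM. The order of the upper 3 rests on small gaps, and the intervals of Fcer2a cells and cells with none overlapped. The adult order was another. Bhlhe41 cells were lowest, at 2983 CPM (2908 to 3060), followed by Vpreb3 cells at 3628 CPM (3545 to 3713), cells with none at 3712 CPM (3648 to 3778) and Fcer2a cells at 3780 CPM (3731 to 3830), and the intervals of cells with none overlapped those of both neighbours. Cells with several had 3971 CPM. After thinning, at least 5 members were present in 40.3% of neonatal Bhlhe41 cells (29.2 to 52.1%), 38.9% of Fcer2a cells (32.8 to 45.2%) and 18.2% of Vpreb3 cells (15.4 to 21.3%). The adult shares were 12.9% (7.86 to 19.7%), 21.1% (18.5 to 24.0%) and 19.8% (15.9 to 24.3%).

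**Figure D4:**
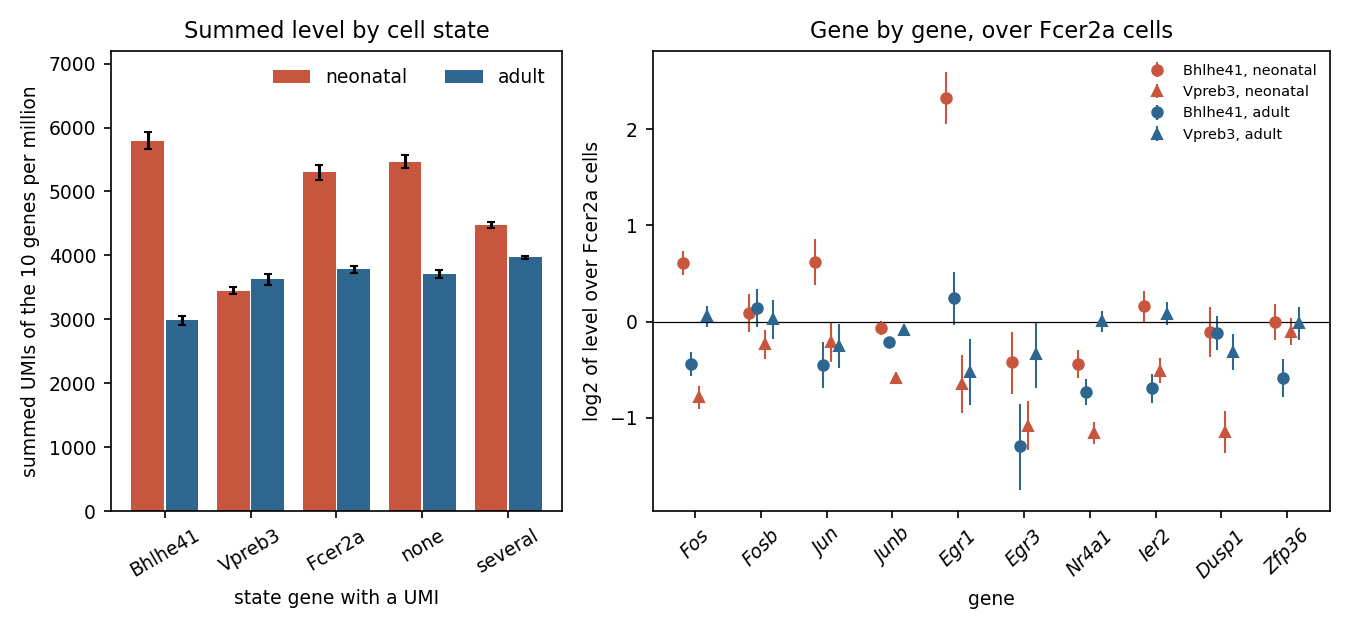
Left, summed level of the 10 genes in CPM by cell state and library, with error lines for exact 95% Poisson intervals. Right, log2 of each gene's level in Bhlhe41 cells (circles) and Vpreb3 cells (triangles) over Fcer2a cells of the same library, with exact conditional binomial intervals. Neonatal Vpreb3 cells lay below 0 for all 10 genes, and neonatal Bhlhe41 cells were far above 0 for Egr1 at 2.32.

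Against Fcer2a cells, the sum in neonatal Vpreb3 cells had a log2 ratio of -0.62 (-0.66 to -0.58), and all 10 members lay below 0. The median over all genes was 0.09, and the interval of Zfp36 spanned 0 (-0.25 to 0.04). Past 1.5-fold, 6 members were lower, with 3.97% of 7385 genes lower by as much, and 0 were higher, with 9.07% of genes higher. Nr4a1 had 312 CPM in Vpreb3 and 697.5 CPM in Fcer2a cells (log2 ratio -1.16), Dusp1 88.1 and 195 CPM (-1.15), Egr3 67.6 and 143 CPM (-1.08) and Fos 356 and 615 CPM (-0.79). Egr1 and Junb were the others past 1.5-fold. Zfp36 (321 and 346 CPM) and Jun (146 and 169.5 CPM) were nearly level. The sum of the macrophage markers was 142 CPM in Vpreb3 and 155 CPM in Fcer2a cells. With states set from the thinned counts the log2 ratio of the sum was -0.35, and with at most 5% mitochondrial UMIs, which left 21 and 8 cells, it was -0.04. In the adult library the sum in Vpreb3 cells was close to that of Fcer2a cells, with a log2 ratio of -0.06 (-0.10 to -0.02), and 0 members were past 1.5-fold, where 3.73% of genes were lower and 4.08% higher.

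Bhlhe41 cells lay on opposite sides of Fcer2a cells in the libraries, a difference that was not tested. In the neonatal library 3 members were at least 1.5-fold higher than in Fcer2a cells (Egr1, Jun and Fos) and 0 lower, and of 5451 genes 11.5% were higher and 17.8% lower. Egr1 had 447 CPM in Bhlhe41 cells (409 to 488) and 89.3 CPM in Fcer2a cells (75.5 to 105), a log2 ratio of 2.32 (2.06 to 2.60). It was present in 19.5% of thinned Bhlhe41 cells and in 8.33% of Fcer2a cells. These levels rest on few cells: 25 of 77 Bhlhe41 cells held the 511 Egr1 UMIs, and 5 held 50% of them. With states set from thinned counts the Egr1 ratio was -0.34, the 1 of 14 alternatives that turned its sign. Fos had 939 CPM in Bhlhe41 and 615 CPM in Fcer2a cells (log2 ratio 0.61, 0.48 to 0.73). For Jun the 259.9 CPM of Bhlhe41 cells were set by 1 cell, which held 48.1% of the 297 UMIs, and without cells that had at least 3 macrophage or T cell markers (2 of the 77) the level was 140 CPM, below the 171 CPM of Fcer2a cells. Without those cells Fos had 863 and 604 CPM, under 1.5-fold, so that Egr1 alone (380.2 and 76.7 CPM) remained of the 3. Egr3 (107 and 143 CPM) and Nr4a1 (513 and 697.5 CPM) were lower in the same Bhlhe41 cells. The sum had a log2 ratio of 0.13 (0.08 to 0.18), where the median over all genes was -0.09. The ratio of the sum was -0.12 with states set from thinned counts. It was -0.23 without cells that had at least 2 UMIs of other cell types' markers, a rule that kept 22 of the 77.

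In the adult library 3 members were at least 1.5-fold lower in Bhlhe41 than in Fcer2a cells (Egr3, Nr4a1 and Ier2) and 0 higher, where 17.2% of 7815 genes were lower and 6.51% higher. Nr4a1 had 259.6 and 431 CPM (log2 ratio -0.73), Ier2 226 and 367 CPM (-0.70) and Egr3 24.4 and 59.9 CPM (-1.29). Egr1 had 75.7 and 64.1 CPM, and Fos 319 and 433 CPM (-0.44). The sum had a log2 ratio of -0.34 (-0.38 to -0.30), where the median over all genes was -0.16. The ratio of the sum stayed below 0 under each of 14 alternatives. Keeping neonatal male cells only, an alternative among the 14, left the adult cells as they were and could not change it. The macrophage markers summed to 405 CPM in neonatal Bhlhe41 cells and 143 CPM in adult Bhlhe41 cells, against 155 and 105 CPM in Fcer2a cells. Their part in the contrast was not tested beyond the values without marked cells, where the neonatal sum had a log2 ratio of 0.07 and the adult one -0.34. Among cells above the median number of UMIs of their library, the log2 ratios were 0.10 and -0.24.

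Set library against library within a state, the members were lower in adult than in neonatal Bhlhe41 cells for all 10 genes. The median log2 ratio over all genes with at least 50 UMIs was also below 0, at -0.21. The interval of Dusp1 spanned 0 (-0.09, -0.35 to 0.16), and Dusp1 kept its sign in 6 of 14 alternatives. The sum had a log2 ratio of -0.96 (-1.01 to -0.91), 8 members were lower past 1.5-fold and 0 higher, and 19.4% of 5489 genes were lower and 6.38% higher. Egr1 had the log2 ratio furthest from 0, -2.56, followed by Egr3 with -2.13, Fos with -1.56 and Jun with -1.54. The Egr1 ratio kept its sign in 13 of 14 alternatives and ran from -3.91 to 0.07 over them. In the neonatal cells 5 cells held 50% of the Egr1 UMIs, 3 those of Egr3 and 2 those of Jun. Without cells that had at least 3 macrophage or T cell markers, Jun had 140 CPM in neonatal and 89.5 CPM in adult Bhlhe41 cells, and Dusp1 had the higher adult level, 145 and 171 CPM. In Fcer2a cells the sum had a log2 ratio of -0.49 (-0.52 to -0.45), beside a median over all genes of -0.11. In these cells 4 members were lower past 1.5-fold (Fosb, Egr3, Zfp36 and Nr4a1) and 0 higher, and 13.4% of 7763 genes were lower and 7.64% higher. In Vpreb3 cells the sum had a log2 ratio of 0.07 (0.03 to 0.11), above the median over all genes of -0.22. The ratio of the sum was -0.24 among cells above the median number of UMIs. Over all Vpreb3 cells, Dusp1 was 1 member higher past 1.5-fold (88.1 and 148 CPM) and 2 were lower, Fosb (268 and 134 CPM) and Zfp36 (321 and 187 CPM), beside 5.33% of 7522 genes higher and 17.8% lower. Fosb and Zfp36 were thus lower past 1.5-fold in adult cells of all 3 states. Jun, Egr3 and Egr1 were also lower in all 3 states, but within 1.5-fold in Vpreb3 cells (-0.52, -0.52 and -0.35). The interval of Egr1 spanned 0 in Vpreb3 cells. Jun and Egr1 were within 1.5-fold in Fcer2a cells too (-0.48 and -0.48).

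The Egr and Nr4a genes had 28.8 UMIs per 100 AP-1 UMIs in neonatal Bhlhe41 cells, 27.5 in Fcer2a cells and 19.1 in Vpreb3 cells. In the adult library the same ratio was 17.1 in Bhlhe41 cells, 22.3 in Fcer2a cells and 22.0 in Vpreb3 cells. The near-equal neonatal ratios of Bhlhe41 and Fcer2a cells were made up of different genes. Egr1 was 447 of the 1067 CPM of the Egr and Nr4a genes in neonatal Bhlhe41 cells, and 5 cells held 50% of its UMIs. In neonatal Fcer2a cells Egr1 was 89.3 of 930 CPM, and Egr3 and Nr4a1 were higher than in Bhlhe41 cells. Of the cells with at least 8 members, 7 of the 64 neonatal ones were Bhlhe41 cells (9.09% of that state), 11 were Fcer2a cells (4.37%) and 9 were Vpreb3 cells (1.31%). Among adult cells these were 3 (2.16%), 10 (1.14%) and 6 (1.61%).

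Depth and mitochondrial share moved with the members, and differently in each library. Split into 4 bins of equal size by UMIs, neonatal cells had a member sum of 3641 CPM in the lowest bin (median 4422 UMIs) and 5088 CPM in the highest (median 11953 UMIs). Adult cells had 4250 CPM in the lowest (median 3690 UMIs) and 3813 CPM in the highest bin (median 16758 UMIs). Egr1 was higher in the deeper cells of both, from 82.7 to 203 CPM in neonatal and from 21.8 to 111 CPM in adult cells. Ier2 went from 504 CPM in the lowest to 316 CPM in the highest adult bin, and Nr4a1 from 558 to 455 CPM, while in neonatal cells they went from 354 to 409.6 CPM and from 328 to 579.5 CPM. In all 4 bins the adult level of Fosb, Jun, Egr1, Egr3 and Zfp36 was below the neonatal one, that of Dusp1 above it, and for Fos, Junb, Nr4a1 and Ier2 it was above in 2 and below in 2. By mitochondrial share the neonatal sum went from 5375 CPM in the bin with least (median 6.01%) to 3837 CPM in that with most (median 8.93%), and the adult sum from 3726 CPM to 3788 CPM. The part of depth in the differences between the libraries was not tested beyond the thinned values.

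**Figure D5:**
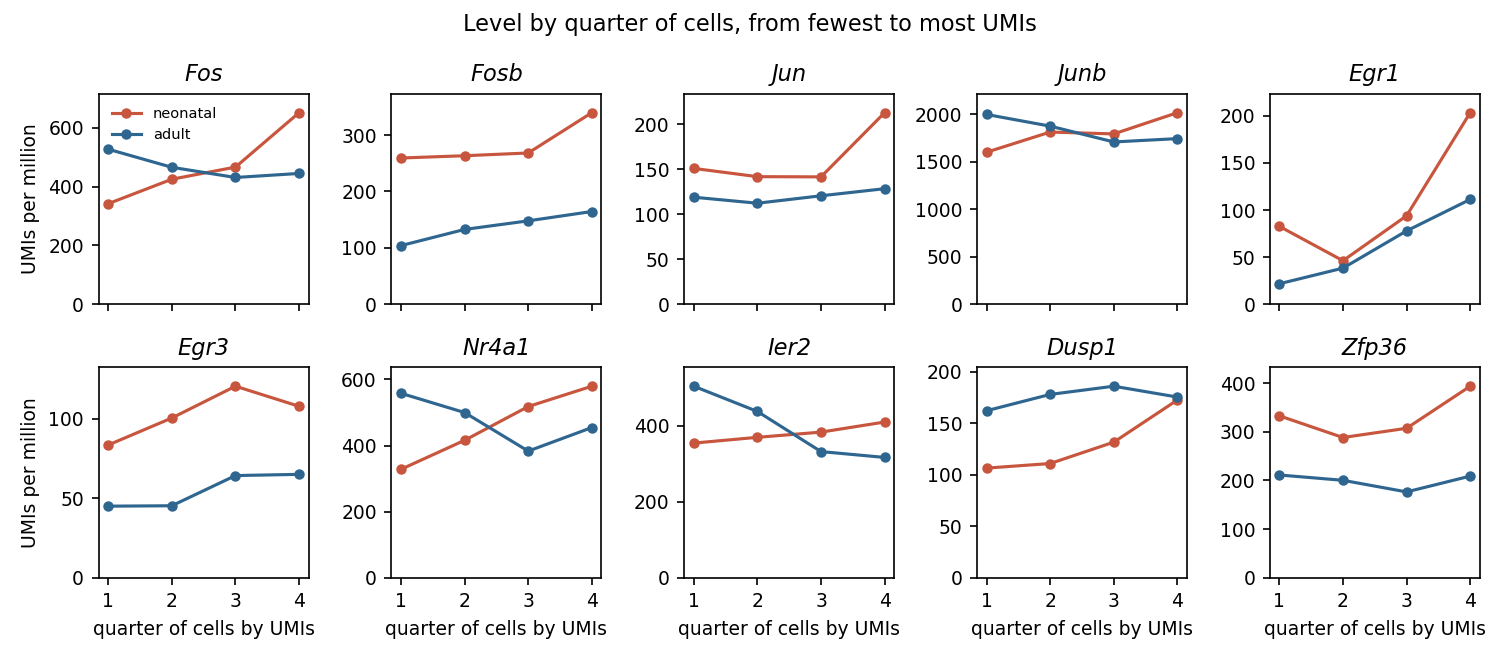
Level of each gene in CPM (axes start at 0) by bin of the cells of a library (4 of equal size), from fewest (1) to most UMIs (4), with 1 line per library. The lines crossed for Fos, Junb, Nr4a1 and Ier2, and the adult line stayed below for Fosb, Jun, Egr1, Egr3 and Zfp36.

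Since the neonatal library held both sexes, its cells were split by Y-linked genes and Xist into 1279 male and 323 female cells, with 475 left unassigned. The member sum of male over female cells had a log2 ratio of 0.03 (-0.0042 to 0.06), beside a median over all genes of -0.01. Single members lay on both sides of 0. Egr1 (0.49, 0.29 to 0.70), Jun (0.41, 0.23 to 0.59), Fos (0.32), Fosb (0.28), Nr4a1 (0.26) and Egr3 (0.05) had the higher level in male cells. Dusp1 (-0.33, -0.49 to -0.16), Ier2 (-0.15), Junb (-0.12) and Zfp36 (-0.04) had the lower one. The intervals of Egr3 and Zfp36 spanned 0. Adult cells over neonatal male cells gave -0.24 (-0.26 to -0.23) for the sum, beside a median over all genes of -0.12. The share of all genes past 1.5-fold is not given for either comparison, so members past it are not counted. Cells that carried at least 3 macrophage markers had a member sum of 10187 CPM among neonatal cells and 4728 CPM among adult cells, with Dusp1 at 1160 CPM in the former. Without them and the cells with T cell markers the sums were 4401 and 3820 CPM, and the log2 ratio was -0.20.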

How the data were processed

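Sorted heart B cells of 2 libraries (1 neonatal, 1 adult, 6 mice each) were profiled with droplet 3′ sequencing. The values used are the raw UMI counts per gene and droplet that the authors deposited for each library. They were made with Cell Ranger, release 3.0.2 in the file headers (a later release is named in the study's methods), on mm10, and were neither normalised nor filtered for cells. Droplets with at least 2000 gene UMIs, at most 10% mitochondrial UMIs and at least 1 Cd79a UMI were kept. Doublets were not called or removed, and cells with markers of other types are reported separately. Antibody tags were not used here.

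Counts were summed over cells and given per 1000000 UMIs (CPM) with exact 95% intervals. For shares, correlations and counts of members per cell, each cell was thinned at random to 2000 UMIs with a fixed seed. Correlations used log2(UMIs + 1). Ratios between libraries or states count as apart past 1.5-fold, among genes with at least 50 UMIs over both sides. With 1 library per age no test was made. The scripts were tested on simulated data. The tools were scipy 1.17.1, numpy 2.4.6, pandas 2.3.3 and matplotlib 3.10.9 under Python 3.11.15.

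The members and lists were chosen with earlier results of these data known. All members are named, as are up to 4 genes per list with at least 50 UMIs and past 1.5-fold, by size of the ratio, and the 10 genes most correlated with the summed members. Genes named outside this rule are marked as such. Alternatives varied the limits on UMIs, mitochondrial share and Cd79a, the scaling, the thinning, the marking of states and the cells left out. Leaving out cells with at least 3 macrophage or T cell markers, and keeping only cells above the median UMIs of their library, were chosen after seeing the data.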

Additional observations from a re-analysis of the deposited data

Results flagged for a closer look

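With 1 library per age, none of the differences below was tested. Bhlhe41 cells lay on opposite sides of Fcer2a cells in the libraries. The log2 ratio of the summed members was 0.13 among neonatal cells and -0.34 among adult cells, that of Fos 0.61 and -0.44, and that of Jun 0.62 and -0.45. The medians over all genes were -0.09 and -0.16. The neonatal ratio of the sum was below 0 in 4 of 14 alternatives (-0.23 at the lowest), and the neonatal Jun value was -0.29 without cells that had at least 3 macrophage or T cell markers.

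The ratio of adult to neonatal cells lay on both sides of 0 in different states. The sum had a log2 ratio of -0.96 in Bhlhe41 cells and -0.49 in Fcer2a cells but 0.074 in Vpreb3 cells, where 3 of 14 alternatives turned it (-0.88, -0.24 and -0.048) and a minimum of 4000 UMIs gave 0.0091. In the same order of states the log2 ratios were -1.56, -0.51 and 0.33 for Fos, -0.49, -0.34 and 0.16 for Junb, -0.98, -0.69 and 0.46 for Nr4a1, and -1.13, -0.28 and 0.32 for Ier2.

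Signal of the members was also present in droplets outside the cells. The 14 neonatal droplets that met the other limits but had no Cd79a UMI had a member sum of 9950 CPM. In them the markers of erythroid cells summed to 228042 CPM, those of macrophages to 12279 CPM and those of T cells to 1187 CPM. The 4 such adult droplets had a member sum of 716 CPM, with macrophage markers at 0 CPM and T cell markers at 3547 CPM. Near-empty droplets had 4611 CPM in the neonatal library and 4300 CPM in the adult library.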

How the results depend on the processing

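Each age is 1 library, so depth gives counting error only and no interval covers differences between mice. No paired analysis was possible because there is 1 library per age and no test. The minimum of 1000 gene UMIs was not run for measures on thinned cells, since cells under 2000 UMIs cannot be thinned to that number. Of 236 values of 17 main results under 24 alternatives, 151 stayed within their tolerance, 77 moved and 8 changed sign. Some of those that stayed were fixed in advance. Keeping neonatal male cells only left values of the adult library alone as they were. Counts of members could not move with the minimum of UMIs per gene, since every member passed the highest one tried, 500. Of 140 ratios of single members between the libraries, 14 changed sign. The cause of these changes was not tested. Values are log2 ratios unless said otherwise.

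At most 5% mitochondrial UMIs left 60 neonatal and 156 adult cells and gave -1.001 for the sum between the libraries, -1.17 for the median member, 7 members lower, -1.13 for Dusp1, 38.3% of neonatal cells with at least 5 members, and family correlations of 0.47 (neonatal) and 0.22 (adult). It gave 0.76 (neonatal) and -0.49 (adult) for Bhlhe41 over Fcer2a cells, -0.043 and -0.14 for Vpreb3 over Fcer2a cells, and -2.02, -0.88 and -0.78 for adult over neonatal Bhlhe41, Vpreb3 and Fcer2a cells. These ratios by state rest on few cells. The limit left 6 Bhlhe41, 21 Vpreb3 and 8 Fcer2a cells in the neonatal library and 4, 17 and 46 in the adult library. With no mitochondrial limit the sum gave -0.22. A minimum of 4000 UMIs gave -0.26 for the sum, an adult family correlation of 0.30 and 0.0091 for adult over neonatal Vpreb3 cells. At least 3 Cd79a UMIs gave 0.024 for neonatal Bhlhe41 over Fcer2a cells and -0.85 for adult over neonatal Bhlhe41 cells.

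Without the 5% of cells with most UMIs, the sum gave -0.16, the median member -0.21, Bhlhe41 over Fcer2a cells 0.30 (neonatal) and -0.29 (adult), and adult over neonatal -1.03 in Bhlhe41 and -0.44 in Fcer2a cells. Leaving out cells with at least 2 UMIs of other types' markers kept 1154 neonatal and 2133 adult cells. The sum then gave -0.10, the median -0.14, Fos 0.086, Junb 0.0092 and Ier2 0.072. At least 5 members were then present in 24.8% (neonatal) and 21.4% (adult) of cells, Bhlhe41 over Fcer2a gave -0.23 and -0.82, neonatal Vpreb3 over Fcer2a -0.58, and adult over neonatal 0.14 in Vpreb3 and -0.38 in Fcer2a cells. Without macrophage or T cell marked cells, the sum gave -0.20, neonatal Bhlhe41 over Fcer2a 0.074 and adult over neonatal Bhlhe41 cells -0.87. Without shared barcodes these were -0.22, 0.22 and -1.03, and the median member -0.28. Neonatal male cells alone gave -0.028 for Bhlhe41 and -0.74 for Vpreb3 over Fcer2a cells, and -0.86, 0.13 and -0.54 for adult over neonatal Bhlhe41, Vpreb3 and Fcer2a cells.

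The mean of cell CPM gave -0.098 for the sum, -0.18 for the median, 0.035 for Fos, 0.025 for Junb, 0.029 for Nr4a1 and 0.085 for Ier2, and -0.86, 0.18 and -0.36 in the 3 states in that order. Thinning to 2000 UMIs gave -0.091 for the sum, -0.18 for the median, 0.049 for Fos, 0.029 for Junb and 0.076 for Ier2. Median of ratios scaling gave -0.082 for the sum, -0.22 for the median, 0.073 for Junb, 0.0032 for Nr4a1 and 0.0098 for Ier2. At 2-fold, 0 members were lower, and the share of all genes was not computed at that fold. Counts as sequenced gave 71.1% of neonatal and 66.5% of adult cells with at least 5 members, pair medians of 0.37 and 0.42, and family correlations of 0.62 and 0.60. Thinning to 1000 UMIs gave 10.0% and 6.95%, family correlations of 0.27 and 0.17, and an adult pair median of 0.095.

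States from thinned counts gave -0.12 (neonatal) and -0.21 (adult) for Bhlhe41, -0.35 and 0.027 for Vpreb3 over Fcer2a cells, and -0.41 and -0.32 for adult over neonatal Bhlhe41 and Fcer2a cells. Counting cells with a UMI whatever the other genes gave -0.020 and -0.10 for Bhlhe41 and -0.22 and -0.0071 for Vpreb3 over Fcer2a cells, and -0.34, -0.048 and -0.26 for adult over neonatal Bhlhe41, Vpreb3 and Fcer2a cells. Cells above the median UMIs gave -0.53 (neonatal) and -0.11 (adult) for Vpreb3 and -0.24 (adult) for Bhlhe41 over Fcer2a cells, and -0.24 and -0.66 for adult over neonatal Vpreb3 and Fcer2a cells.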
